A study of Caenorhabditis elegans with 12 samples.

Results

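The mutations *rde-4* and *age-1* were combined in a full factorial design, and the question here was which transcripts of the *age-1; rde-4* double mutant departed from the sum of the changes seen in the single mutants, and in which strain the departure lay. All 12 of the 12 mRNA libraries of the series belong to this design and all were used: 3 worm populations each of *age-1(hx546); rde-4(ne301)*, *age-1(hx546)*, *rde-4(ne301)* and N2 wild type (WT). The populations were grown at 20 °C on *E. coli* OP50, synchronized by bleaching and collected whole as young adults, before embryos could be seen. The sample titles name genotypes and not strains, and the paper lists each mutant genotype both with and without outcrossing. A mutation and any other variant that its strain carries cannot be told apart. *ne301* is a null allele of *rde-4*, and *hx546* is a missense allele that weakens *age-1* without removing it.

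RDE-4 binds double-stranded RNA and works with the nuclease Dicer to make small interfering RNAs. Argonaute proteins carry these RNAs to matching transcripts, and while sperm form the Argonautes ALG-3 and ALG-4 both repress and promote the expression of their targets. AGE-1 is the catalytic subunit of the phosphatidylinositol 3-kinase of insulin/IGF-1 signaling (IIS), and its weakening frees the FOXO transcription factor DAF-16 to enter the nucleus, which lengthens life.

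The interaction of a gene is the log2 change from adding the *rde-4* mutation to *age-1* worms (*age-1; rde-4* minus *age-1*) minus the log2 change from adding it to WT worms (*rde-4* minus WT). At 0 the effects add up on the log2 scale. A positive value places the double mutant above the additive sum and a negative value below it. Of 16741 genes tested with edgeR's quasi-likelihood test, 19 (0.113%) departed from additivity at an adjusted p under 0.05. Of these, 9 lay above the sum (0.0538% of the genes tested) and 10 below it (0.0597%), and 16 were protein-coding. At an unadjusted p under 0.05 there were 636 genes above and 1368 below. The interaction had a median of −0.06 over all genes, and it was within 1 log2 unit of 0 in 81.4% of them. Its median standard error was 0.35, so a small departure of a single gene was not detectable with 3 populations per genotype.

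**Figure D1:**
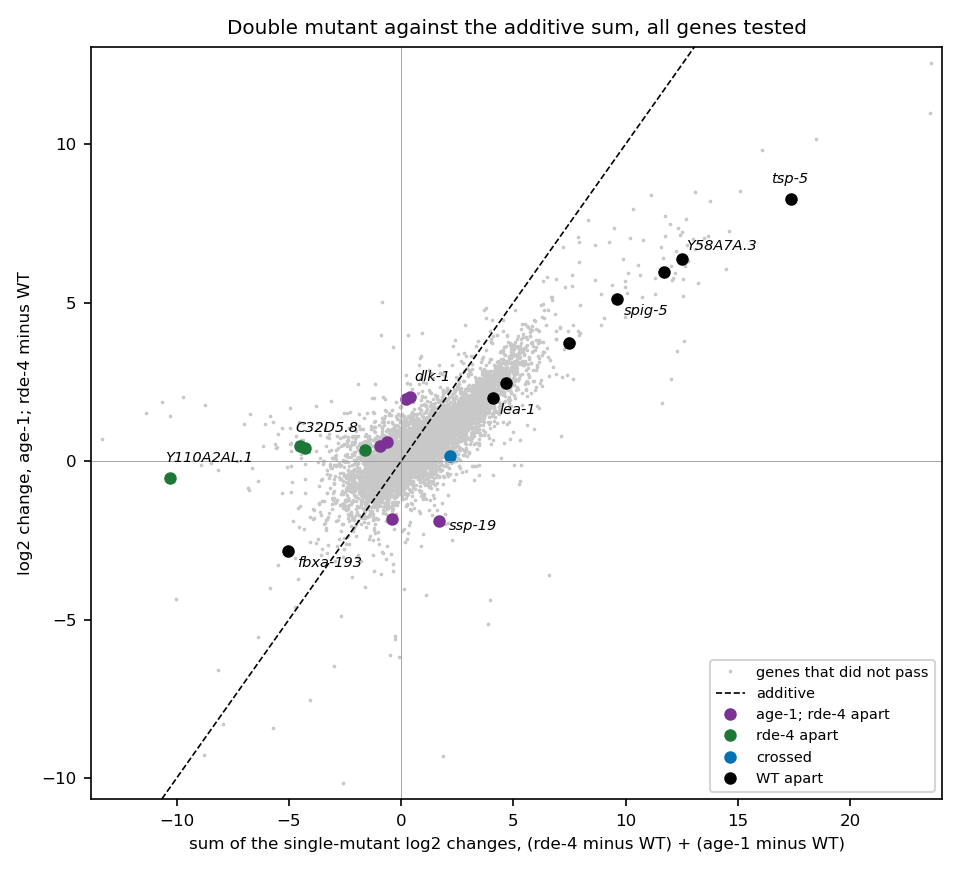
Log2 change of the double mutant relative to WT (vertical axis) against the sum of both single-mutant log2 changes (horizontal axis), 1 point per gene tested; the dashed line marks additive effects and the 19 called genes are coloured by the strain that stood apart. Called genes with WT apart lie far to the right of the dashed line except *fbxa-193*, and those with *rde-4* apart lie to its left; positions of genes with 0 counts in a whole group, such as *tsp-5* and Y110A2AL.1, depend on the prior count of the fit.

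To see which strain departed, the 4 fitted group means of each called gene were ordered and split at the largest gap. WT stood apart from the 3 mutants in 8 genes, *rde-4* in 4, the double mutant in 6 and *age-1* in 0. In 1 gene the largest gap put the single mutants on one side and the double mutant and WT on the other, a pattern called crossed here. Over all genes tested, the same split put WT apart in 23.5%, *rde-4* in 11.3%, the double mutant in 12.5% and *age-1* in 21.9%, with 3.73% crossed. In 14 of the 19 genes the split was clear, meaning that the gap was at least 2 times the next one and the libraries on its sides did not overlap in level. The same values gave the calls, so these classes describe the genes and test nothing. Among the 1368 genes below the sum at an unadjusted p under 0.05, the largest class was WT apart with 915 (66.9%, against 23.5% of all genes). Among the 636 genes above it, the largest was *age-1* apart with 254 (39.9%, against 21.9% of all genes). No gene of that last class passed the adjusted threshold. By position, 8 of the called genes lie on chromosome V (3329 genes tested), 4 on II (2898), 3 on I (2677), 3 on IV (2820) and 1 on X (2250). None lies on III (2492 tested). Those on V include the neighbours *spig-4* and *spig-5*, and the neighbours Y58A7A.3 and Y58A7A.4.

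The libraries were similar in depth, with 74501098 to 82446102 counts each, but replicates differed in shared expression. The first principal component (36.3% of the variance) put WT replicate 2 at −30.01, against −97.6 and −84.3 for WT replicates 1 and 3. It put *rde-4* replicate 3 at −46.4, against 6.29 and 19.2 for *rde-4* replicates 1 and 2. Leaving out WT replicate 2 gave 50 calls and leaving out *rde-4* replicate 3 gave 45, and both sets contained all 19 genes. Without *age-1* replicate 2 there were 5 calls. These 5, C32D5.8, *spig-5*, Y110A2AL.1, F57A10.2 and *fbxb-7*, were also the genes called in each of the 12 fits that left out 1 library. Of the others, *tsp-5* was called in 11 of 12 fits, Y58A7A.3 in 10, *fbxa-193* in 9, *dlk-1*, *spig-4* and *lea-1* in 8, C32D5.18 in 6, and Y58A7A.4, W06A11.4, *ssp-19* and C27D8.3 in 4. W02D9.4, *timm-17B.2* and F54F7.2 were called in 3. The highest adjusted p of any of the 19 in these fits was 0.147 (edgeR). The calls lost numbered 14 without *age-1* replicate 2, 11 without *age-1* replicate 3, 11 without *rde-4* replicate 2, 11 without double-mutant replicate 2, 10 without *age-1* replicate 1, 7 without *rde-4* replicate 1 or double-mutant replicate 3, 5 without WT replicate 1 or 3, and 2 without double-mutant replicate 1. With the mean collagen level of the libraries as a covariate 2 genes were called, C32D5.8 and W02D9.4, and with DESeq2 337 were, among them all 19.

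**Figure D2:**
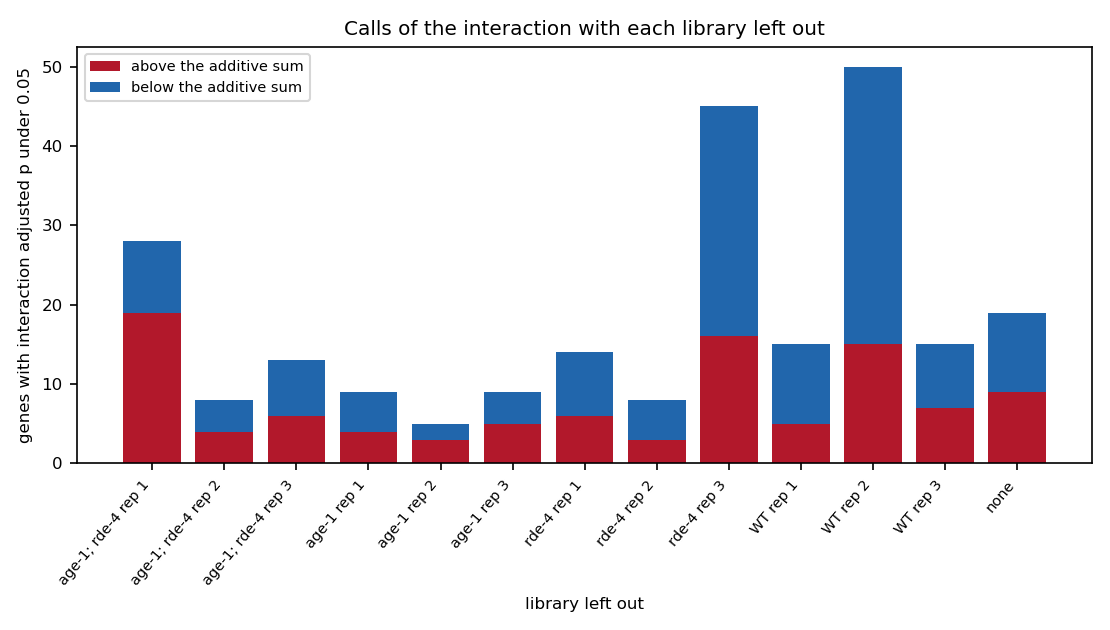
Number of genes with an interaction at an adjusted p under 0.05 (edgeR) when the library named on the horizontal axis was left out, stacked as genes above (red) and below (blue) the additive sum. The count runs from 5 without *age-1* replicate 2 to 50 without WT replicate 2, against 19 with all libraries.

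The gene with the smallest p was C32D5.8 (chromosome II of WBcel235, 6343058 to 6345922), a protein-coding gene without a name, which stood apart in *rde-4*. It was at 165, 146 and 141 CPM (counts scaled to library size, with TMM factors) in *age-1; rde-4* replicates 1 to 3, at 132, 138 and 137 CPM in *age-1*, at 4.74, 5.27 and 4.44 CPM in *rde-4*, and at 118, 116 and 106 CPM in WT. All 3 *rde-4* libraries were low, and the other 9 lay between 106 and 165 CPM. In the WT background the *rde-4* mutation went with a log2 change of −4.56 (SE 0.11, adjusted p = 2.42e-10), and in the *age-1* background with a change of 0.15 (adjusted p = 0.611), both from edgeR. Additive effects would place the double mutant at 5.75 CPM, and it was at 151 ± 12.59 CPM (SD, n = 3), 26.2 times as high. The interaction was 4.71 (SE 0.15, adjusted p = 3.42e-09, edgeR), and it ran from 4.63 to 4.79 as each library was left out.

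C32D5.18, a noncoding RNA gene (6343088 to 6343234) that lies inside C32D5.8 on the other strand, was lowest in *rde-4* as well. It was at 1.83, 2.10 and 1.49 CPM in *age-1; rde-4*, 2.12, 1.73 and 1.73 CPM in *age-1*, 0.0889, 0.0255 and 0 CPM in *rde-4*, and 1.59, 1.23 and 1.04 CPM in WT. The *rde-4* libraries held 7, 2 and 0 counts, and the other 9 held 78 to 172. Its interaction was 4.99 (SE 0.74, adjusted p = 0.0254, edgeR). The strand setting of the counting is not given in the sources used here, so reads of C32D5.8 and C32D5.18 may be shared. The other gene overlapping C32D5.8, *txt-18* on the opposite strand, was at 5.72, 6.04, 3.58 and 2.58 CPM in *age-1; rde-4*, *age-1*, *rde-4* and WT, with an interaction of −0.55 (adjusted p = 0.624). Of the 25 tested genes within 50 kb of C32D5.8, C32D5.18 was the only one called.

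Y110A2AL.1 (chromosome II, 2875101 to 2876768) was absent from the counts of *rde-4* alone. It had 19, 61 and 56 counts in *age-1; rde-4*, 20, 28 and 24 in *age-1*, 0, 0 and 0 in *rde-4*, and 56, 51 and 70 in WT. Against a floor of 3 counts per library, it was at least 14.2-fold higher in *age-1; rde-4* than in *rde-4*, and at least 20.6-fold lower in *rde-4* than in WT. The double mutant lay at least 36.4-fold above the additive expectation computed with that floor (adjusted p = 0.00952, edgeR).

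The F-box gene *fbxb-7* (chromosome V, 17377406 to 17379233), of a large worm family whose products are thought to choose proteins for ubiquitination, was the last gene with *rde-4* apart. It was at 9.01, 10.5 and 9.39 CPM in *age-1; rde-4*, 5.32, 5.70 and 5.37 CPM in *age-1*, 3.29, 3.73 and 3.40 CPM in *rde-4*, and 9.38, 6.65 and 6.83 CPM in WT. Here *age-1* was also below WT in every library, so the gap was not clear, and the double mutant overlapped WT. The interaction was 1.95 (SE 0.24, adjusted p = 0.00952, edgeR).

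Calls of the single steps describe the class further. All 4 genes with *rde-4* apart were lower in *rde-4* than in WT, where 0.866% of all genes were called lower and 3.63% higher. All 4 were higher in *age-1; rde-4* than in *rde-4*, where 1.34% of all genes were called higher and 0.245% lower. None of the 4 passed in the double mutant relative to *age-1*, or in *age-1* relative to WT. These steps use the libraries that gave the interaction, so their counts were set in part by the choice of genes.

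In 4 genes the double mutant was the high strain, and in 2 it was the low one. The first was *dlk-1* (chromosome I, 12565800 to 12572801), which encodes a MAP kinase kinase kinase needed for axon regrowth and for shaping synapses. It was at 51.9, 80.3 and 62.5 CPM in *age-1; rde-4*, 21.0, 20.4 and 17.4 CPM in *age-1*, 15.7, 17.5 and 18.2 CPM in *rde-4*, and 14.2, 17.99 and 15.6 CPM in WT. Each double-mutant library was above all 9 others, which lay together. Adding *rde-4* changed *dlk-1* by 1.73 on the log2 scale in *age-1* worms (adjusted p = 0.000621) and by 0.10 in WT worms (adjusted p = 0.900). The interaction was 1.62 (SE 0.23, adjusted p = 0.0175, edgeR), and the double mutant, at 64.9 ± 14.4 CPM (SD, n = 3), was 3.08 times the additive expectation of 21.1 CPM.

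C27D8.3 (chromosome IV, 12706700 to 12711744) followed the same course. It was at 46.9, 79.4 and 48.1 CPM in *age-1; rde-4*, 15.4, 14.6 and 16.6 CPM in *age-1*, 15.03, 18.2 and 17.8 CPM in *rde-4*, and 13.6, 18.5 and 13.3 CPM in WT. The double mutant did not overlap the other strains, which overlapped each other. Its interaction was 1.74 (SE 0.29, adjusted p = 0.0430, edgeR). The genes that overlap its ends on the opposite strand, C27D8.4 and C27D8.2, were not called, with interactions of 0.39 and −1.28 (adjusted p = 0.370 and 0.416).

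W02D9.4 (chromosome I, 12537903 to 12538986) went the other way 26814 bases from *dlk-1*. It was at 8.12, 10.17 and 9.37 CPM in *age-1; rde-4*, 29.6, 22.9 and 27.1 CPM in *age-1*, 32.9, 27.8 and 30.2 CPM in *rde-4*, and 38.3, 27.3 and 32.2 CPM in WT. Again the double mutant did not overlap the other strains. The interaction was −1.42 (SE 0.22, adjusted p = 0.0284, edgeR), and W02D9.4 was at 0.374 times the additive expectation of 24.6 CPM. The gene that overlaps one end of *dlk-1* on the opposite strand, *mec-19*, was not called, with an interaction of 1.59 (SE 0.59, adjusted p = 0.350). It averaged 0.504, 0.386, 0.540 and 1.25 CPM in *age-1; rde-4*, *age-1*, *rde-4* and WT, so that WT and not the double mutant was its high strain; reads in the overlap may be shared. W02D9.4 was the only called gene within 50 kb of *dlk-1*, and the 17 tested genes there had a median interaction of −0.09.

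The other gene low in the double mutant, *ssp-19* (chromosome I, 2562668 to 2562997), belongs to a small sperm-specific family with a major sperm protein (MSP) domain. It was at 0.982, 0.804 and 0.624 CPM in *age-1; rde-4*, 6.58, 5.56 and 5.42 CPM in *age-1*, 5.74, 5.73 and 3.13 CPM in *rde-4*, and 1.22, 4.77 and 2.87 CPM in WT. Every double-mutant library was below every other library, while WT alone varied between 1.22 and 4.77 CPM. The *rde-4* mutation went with a change of −2.86 in *age-1* worms (adjusted p = 0.0113) and of 0.72 in WT worms (adjusted p = 0.485), and the interaction was −3.58 (SE 0.58, adjusted p = 0.0415, edgeR).

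The other 2 genes high in the double mutant had no clear gap, since *rde-4* was low as well; they fall outside the rule for named genes and were chosen after their values were seen. For *timm-17B.2*, which encodes a relative of a subunit of the mitochondrial inner-membrane translocase, group means were 23.7, 13.6, 11.01 and 17.05 CPM in *age-1; rde-4*, *age-1*, *rde-4* and WT (interaction 1.43, adjusted p = 0.0421, edgeR). For F54F7.2 they were 22.9, 14.1, 10.5 and 15.1 CPM in the same order (interaction 1.22, adjusted p = 0.0430, edgeR). Of the 6 genes with the double mutant apart, 4 passed in the double mutant relative to *age-1*. *dlk-1* and C27D8.3 were higher, where 0.317% of all genes were called, and W02D9.4 and *ssp-19* lower, where 0.108% were. The same libraries gave the interaction and the class, so this count was set in part by the choice of genes.

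**Figure D3:**
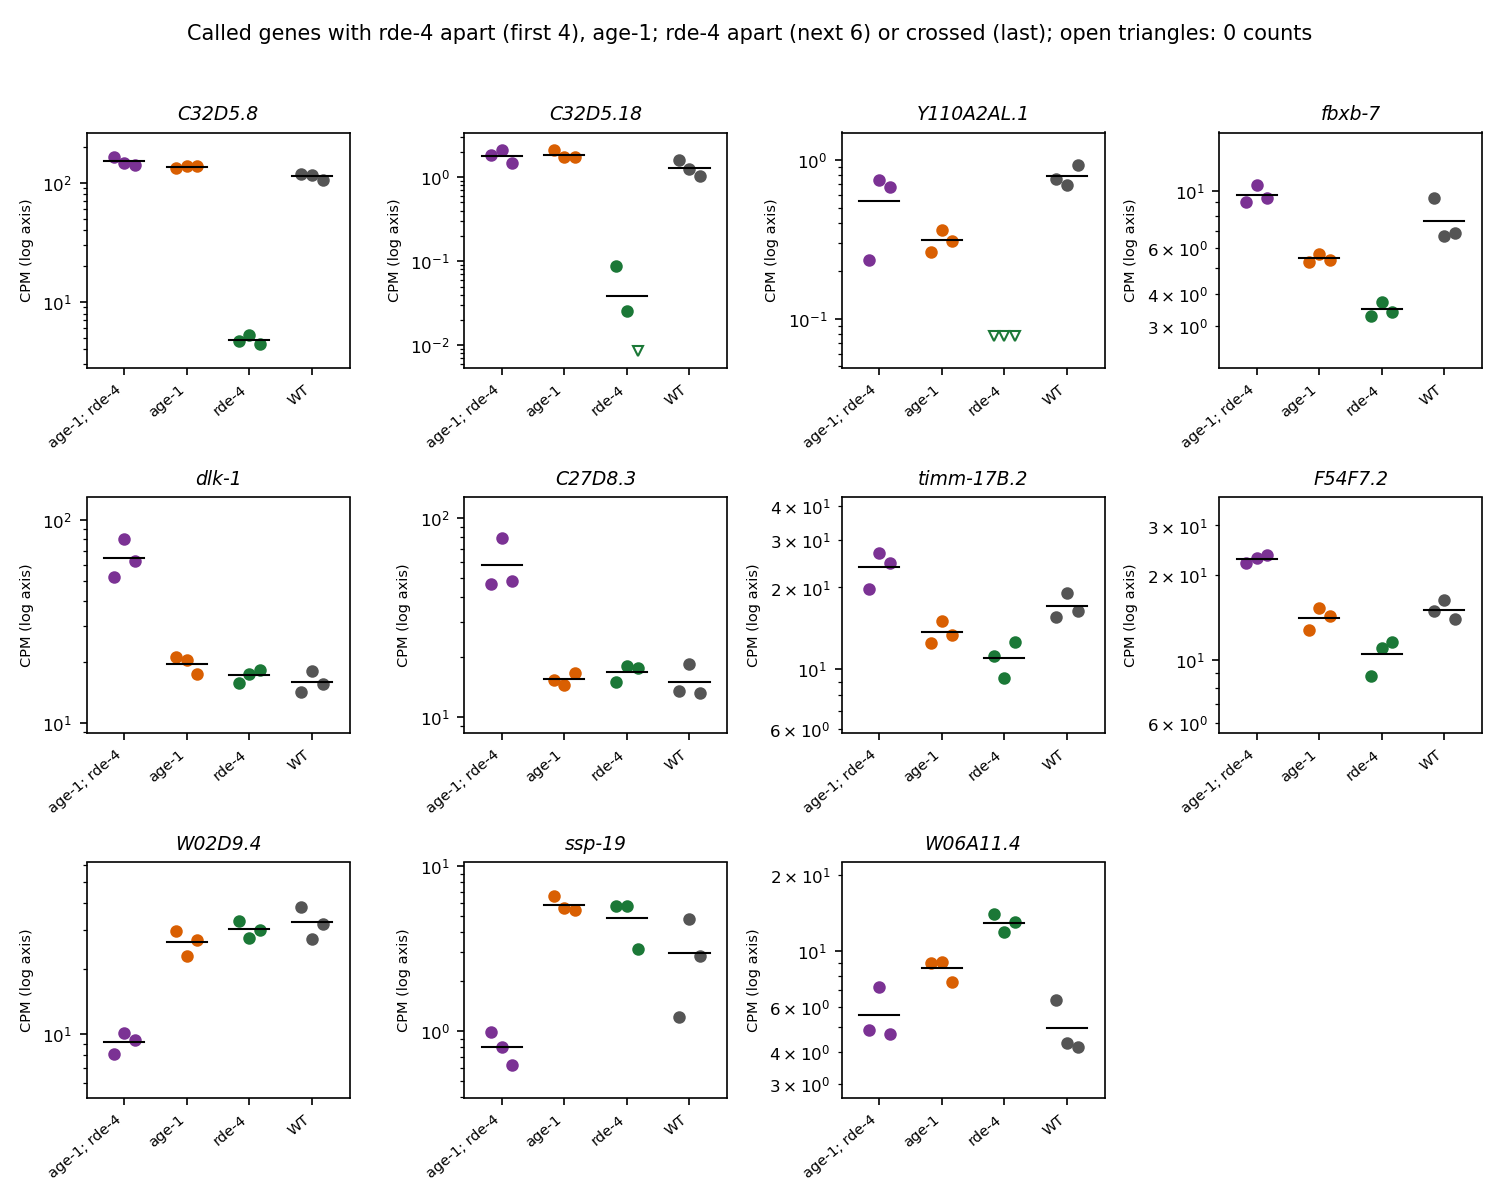
CPM of the 11 called genes with *rde-4* apart, the double mutant apart or a crossed pattern, on log axes, with 1 point per library, bars at group means and open triangles for libraries with 0 counts (drawn at the foot of the panel). The *rde-4* libraries are the low ones in C32D5.8, C32D5.18 and Y110A2AL.1, and the *age-1; rde-4* libraries are separate from the other 9 in *dlk-1*, C27D8.3, W02D9.4 and *ssp-19*.

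In the 8 genes with WT apart, both single mutants lay on the same side of WT and the double mutant lay on that side too. All 8 changed in *rde-4* relative to WT and all 8 in *age-1* relative to WT (for *age-1*, 12.2% of all genes were called higher and 2.58% lower), 7 higher and 1 lower in each. None of the 8 passed in the double mutant relative to either single mutant. The comparisons with WT share the 3 WT libraries, and so does the interaction. The choice of genes therefore set these counts in part.

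The neighbouring genes *spig-5* (chromosome V, 14308464 to 14308877) and *spig-4* (14306468 to 14306871) lie 1593 bases apart on opposite strands. *spig-5* was at 3.28, 4.77 and 5.52 CPM in *age-1; rde-4*, 3.27, 6.85 and 5.37 CPM in *age-1*, 2.67, 3.73 and 1.51 CPM in *rde-4*, and 0.0950, 0.137 and 0.160 CPM in WT. *spig-4* was at 4.69, 4.79 and 5.84 CPM in *age-1; rde-4*, 5.21, 5.81 and 6.88 CPM in *age-1*, 3.03, 4.45 and 3.41 CPM in *rde-4*, and 0.760, 0.905 and 1.103 CPM in WT. In both genes every mutant library was above every WT library, and the double mutant overlapped *age-1*. The interactions were −4.51 for *spig-5* (SE 0.56, adjusted p = 0.00952) and −2.20 for *spig-4* (SE 0.31, adjusted p = 0.0175, edgeR).

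A second neighbouring pair, Y58A7A.3 (chromosome V, 5077854 to 5080903) and Y58A7A.4 (5081988 to 5085007), lies 1085 bases apart on one strand, and how reads that fit both were divided is not given in the sources used here. Y58A7A.3 was at 14.5, 19.03 and 18.6 CPM in *age-1; rde-4*, 12.7, 12.97 and 12.8 CPM in *age-1*, 21.3, 20.5 and 18.3 CPM in *rde-4*, and 0.0950, 0.535 and 0 CPM in WT. WT held 7, 39 and 0 counts, far below every mutant library, and the mean of the double mutant lay between those of the single mutants. Y58A7A.4 had 106, 443 and 445 counts in *age-1; rde-4*, 211, 282 and 179 in *age-1*, 396, 375 and 372 in *rde-4*, and 6, 8 and 0 in WT. The interactions were −6.13 for Y58A7A.3 (SE 0.83, adjusted p = 0.0144) and −5.74 for Y58A7A.4 (SE 0.87, adjusted p = 0.0271, edgeR).

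F57A10.2 (chromosome V, 15766575 to 15767274) was at 1.44, 2.20 and 1.19 CPM in *age-1; rde-4*, 2.12, 3.10 and 2.41 CPM in *age-1*, 1.19, 1.11 and 0.883 CPM in *rde-4*, and 0.0814, 0.151 and 0.133 CPM in WT. Its WT libraries were all lowest, and its interaction was −3.77 (SE 0.47, adjusted p = 0.00952, edgeR). The tetraspanin gene *tsp-5* (chromosome IV, 13590607 to 13591745), of a family of membrane proteins with several membrane-spanning segments, had 24, 47 and 50 counts in *age-1; rde-4*, 30, 63 and 72 in *age-1*, 46, 58 and 40 in *rde-4*, and 0, 0 and 0 in WT. Against a floor of 3 counts per library it was at least 12.97-fold higher in *age-1; rde-4*, 18.9-fold in *age-1* and 16.04-fold in *rde-4* than in WT. The double mutant lay at least 23.3-fold below the additive expectation with that floor (adjusted p = 0.0144, edgeR).

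The gene *lea-1* (chromosome V, 10011923 to 10028168) encodes a protein of the late embryogenesis abundant kind, known for protection against desiccation. It was at 406, 624 and 651 CPM in *age-1; rde-4*, 911, 1004 and 921 CPM in *age-1*, 283, 487 and 292 CPM in *rde-4*, and 113, 163 and 145 CPM in WT. Here the mutants were graded, with *age-1* highest in every library and the double mutant overlapping *rde-4*, so that the gap below the mutants was not clear. Additive effects would give 2379 CPM, and the double mutant was at 561 ± 134 CPM (SD, n = 3). The interaction was −2.09 (SE 0.32, adjusted p = 0.0271, edgeR), and adding *rde-4* to *age-1* went with −0.75 (adjusted p = 0.201).

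The pseudogene *fbxa-193* of the F-box family (chromosome V, 17653482 to 17655281) was the 1 gene of this class that was high in WT. It was at 1.39, 1.92 and 1.75 CPM in *age-1; rde-4*, 1.596, 2.14 and 2.42 CPM in *age-1*, 2.25, 2.19 and 2.12 CPM in *rde-4*, and 14.3, 10.98 and 11.1 CPM in WT. Mutant and WT libraries did not overlap, and the interaction was 2.19 (SE 0.30, adjusted p = 0.0144, edgeR). The crossed gene, the pseudogene W06A11.4, which falls outside the rule for named genes and was chosen after its values were seen, averaged 5.601, 8.53, 12.9 and 4.97 CPM in *age-1; rde-4*, *age-1*, *rde-4* and WT (interaction −1.99, adjusted p = 0.0279, edgeR). Its split was not clear, with a largest gap of 0.607 log2 units and a next gap of 0.600 between the single mutants. Every *rde-4* library was above every *age-1* library.

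**Figure D4:**
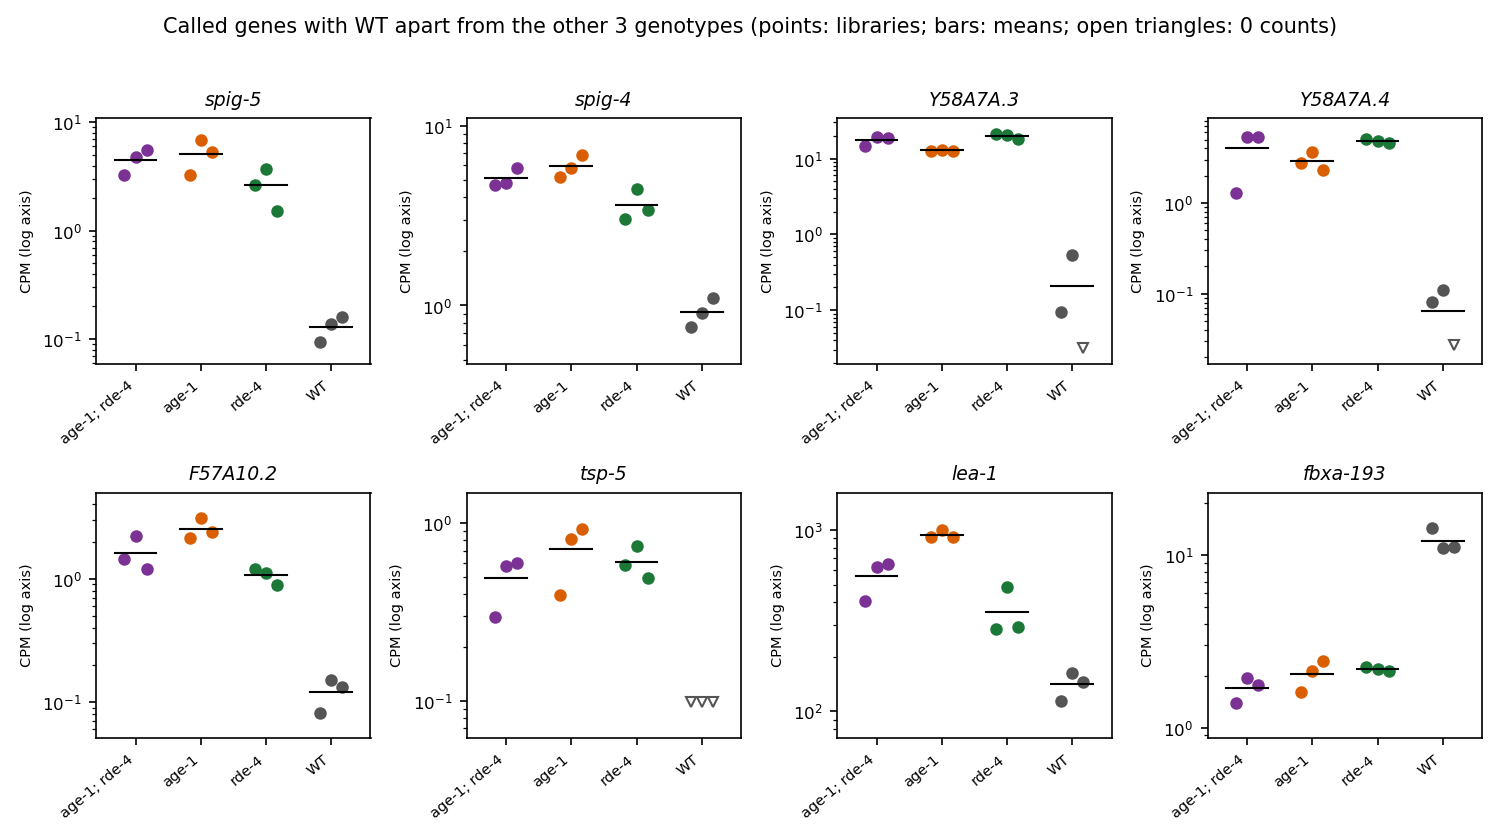
CPM of the 8 called genes with WT apart, on log axes, with 1 point per library, bars at group means and open triangles for libraries with 0 counts (drawn at the foot of the panel). The WT libraries are below all mutant libraries in 7 genes and above them in *fbxa-193*, and in *lea-1* the mutants are graded, with *age-1* highest.

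Gene lists were read by their counts and medians beside those of all genes. Of 52 sperm genes outside the MSP family, 0 passed the adjusted threshold (edgeR). At an unadjusted p under 0.05, 24 of the 52 were below the sum and 0 above, against 8.17% and 3.80% of all genes. The median interaction of these sperm genes was −1.31, against −0.06 over all genes, with 48 of 52 negative. Their median change relative to WT was 1.30 in *age-1; rde-4*, 1.59 in *age-1* and 1.00 in *rde-4*. The mean centred log2 level of the list was 0.744, 0.361 and 0.181 in *age-1; rde-4*, 0.341, 0.770 and 0.251 in *age-1*, 0.423, 0.539 and −0.563 in *rde-4*, and −1.48, −0.408 and −1.16 in WT. Thus WT replicate 2 and *rde-4* replicate 3 lay between the other WT libraries and the remaining mutants. Without WT replicate 2 the median interaction of the list was −1.81, and without *rde-4* replicate 3 it was −1.59. The value closest to 0 with a library left out was −1.07, without *rde-4* replicate 2. With a covariate for the mean collagen level the median was −0.45. The collagen list itself had a median interaction of −0.79, so this covariate can remove effects of the mutations too. In whole worms, a difference in the number of cells making sperm and a difference in sperm RNA per cell cannot be told apart.

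Of 54 MSP and MSP-domain genes, 1 (*ssp-19*) passed below the sum, where 0.0597% of all genes were called. At an unadjusted p under 0.05, 33 of the 54 were below it and 0 above, against 8.17% and 3.80% of all genes. The median interaction of the MSP genes was −1.46 (−0.73 with the collagen covariate). Unlike the other sperm genes, whose median change was −0.03 in the double mutant relative to *age-1*, the MSP genes had a median of −0.77 there, and the difference between the lists was not tested. The list levels were 0.778, −0.263 and −0.370 in *age-1; rde-4*, 0.750, 0.844 and 0.654 in *age-1*, 0.451, 0.433 and −0.820 in *rde-4*, and −1.49, 0.00338 and −0.967 in WT. Double-mutant replicate 1 was therefore among the *age-1* libraries while replicates 2 and 3 were below them. The embryo markers moved in these libraries too. The 10 early zygotic genes of the list, of which 8 passed the filter, summed to 3.56, 8.94 and 7.96 CPM in *age-1; rde-4*. In the other 9 libraries they summed to 4.91 to 7.05 CPM, and the part of stage in these results was not tested.

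Sperm Argonautes and the sperm-related genes that the study names had the same direction, but none passed. *alg-3* was at 37.8, 30.7 and 26.5 CPM in *age-1; rde-4*, 30.7, 42.2 and 32.5 CPM in *age-1*, 26.4, 34.1 and 11.42 CPM in *rde-4*, and 3.73, 14.3 and 8.06 CPM in WT. Its interaction was −1.61 (SE 0.60, adjusted p = 0.350), and that of its paralog *alg-4* was −1.45 (SE 0.62, adjusted p = 0.382, edgeR). In both, *rde-4* replicate 3 was within the WT range. The MSP-domain genes *ssp-16*, *dct-9* and *melo-3* had interactions of −1.54, −1.43 and −0.78 (adjusted p = 0.351, 0.368 and 0.601), and the insulin-like peptide gene *ins-37* had −1.34 (adjusted p = 0.370).

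The study lists genes against which *rde-4* worms had fewer antisense small RNAs than WT worms, from small RNA libraries of these strains. Of 916 such genes tested, C32D5.8 and Y110A2AL.1 passed above the sum and *ssp-19* below it. Their median interaction was −1.29 (−0.45 with the collagen covariate). At an unadjusted p under 0.05, 406 were below the sum and 12 above, against 8.17% and 3.80% of all genes. Of 1180 genes against which *age-1* worms had more of them than WT worms, C32D5.8, C32D5.18 and *fbxa-193* passed above and F57A10.2 and *lea-1* below, with a median of −1.27 (−0.45 with the collagen covariate). Both lists were chosen by the study on the same strains, so their direction is not independent evidence. The lists share 598 genes, 65.3% of the first and 50.7% of the second. The shares called were 0.109% below and 0.218% above in the first list, and 0.169% below and 0.254% above in the second. Of all genes, 0.0597% were called below and 0.0538% above. As in the sperm list, replicates stood apart in the first list, with *rde-4* replicate 3 at −0.375, against 0.480 and 0.591 in *rde-4* replicates 1 and 2, and WT replicate 2 at −0.415, against −1.45 and −1.18 in WT replicates 1 and 3.

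**Figure D5:**
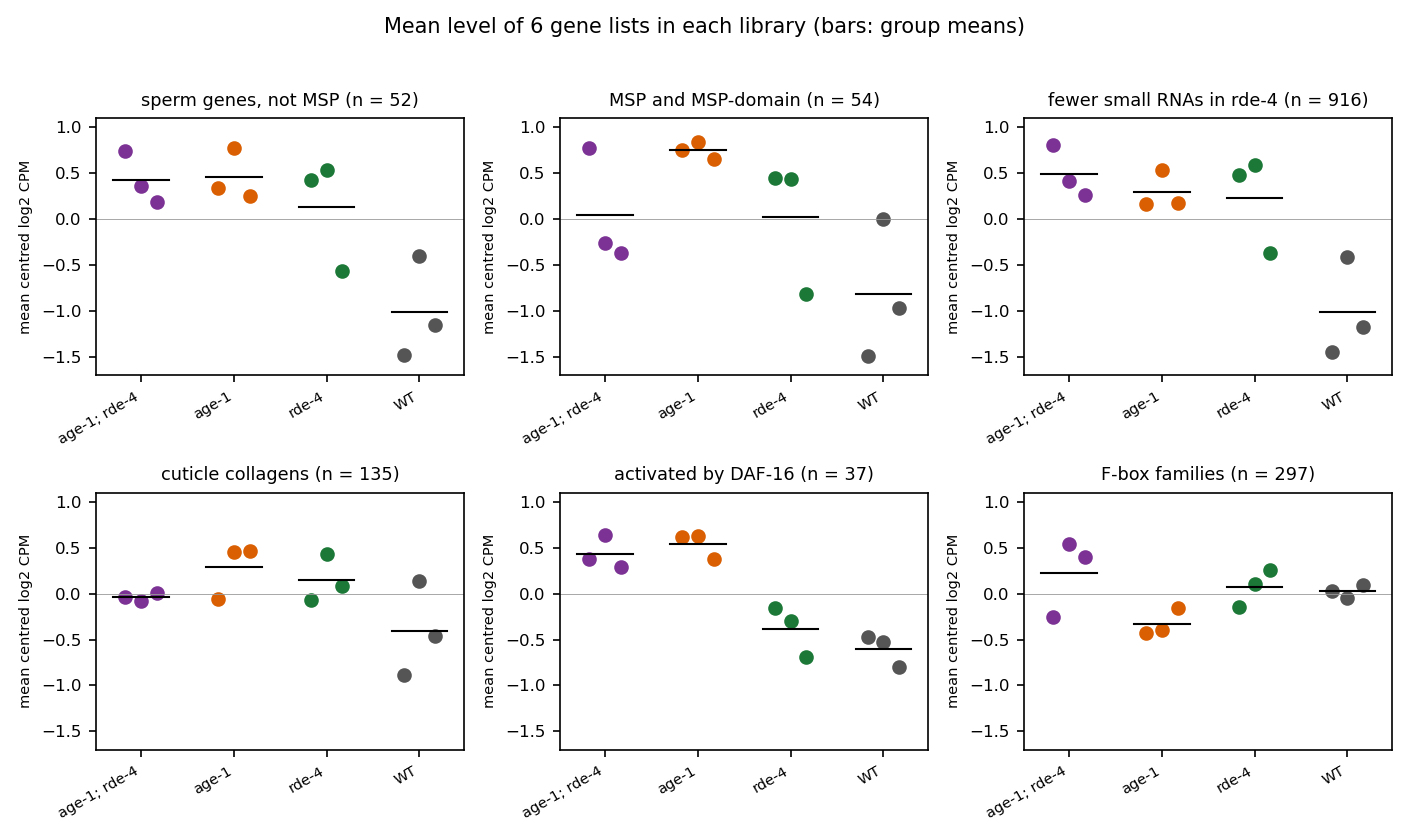
Mean centred log2 CPM of 6 gene lists in each library (1 point per library, bars at group means, n is the number of genes tested). In the sperm, MSP and small RNA lists the WT libraries are lowest on average, with WT replicate 2 and *rde-4* replicate 3 away from the rest of their groups, whereas the genes activated by DAF-16 split by *age-1* and the F-box genes are lowest in *age-1*.

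Among 135 genes for collagens of the cuticle, which are made in waves at each molt, 0 passed (edgeR), 35 were below the sum at an unadjusted p under 0.05 and 0 above, with a median of −0.79. Their level was −0.887 and −0.458 in WT replicates 1 and 3 but 0.133 in WT replicate 2, and the median was −1.21 without WT replicate 2 and −0.45 without WT replicate 1. Among 97 neuropeptide genes, 0 passed, 11 were below and 1 above at an unadjusted p, with a median of −0.47 that was −0.07 with the collagen covariate. Over all genes, 8.17% were below the sum and 3.80% above it at an unadjusted p under 0.05.

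The F-box families *fbxa*, *fbxb* and *fbxc* leaned the other way. Of 297 tested, 2 (*fbxb-7* and *fbxa-193*) passed above the sum and 0 below, and at an unadjusted p under 0.05 there were 37 above and 3 below, against 3.80% above and 8.17% below over all genes. Of all genes 0.0538% were called above. The median was 0.35, or 0.19 among genes with a mean of 50 counts or more, and 0.37 with the 7 genes that were at 0 in a whole group set to the floor. The list level was −0.249, 0.539 and 0.396 in *age-1; rde-4*, −0.424, −0.400 and −0.160 in *age-1*, −0.147, 0.101 and 0.263 in *rde-4*, and 0.0346, −0.0475 and 0.0943 in WT, so that double-mutant replicate 1 lay with *age-1*. Of 79 histone genes 0 passed, 25 were above the sum and 2 below at an unadjusted p (over all genes 3.80% and 8.17%), and the median was 0.34. As each library was left out, the histone median ran from 0.28 without *rde-4* replicate 2 to 0.56 without *rde-4* replicate 3. With the collagen covariate it was 0.20.

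Genes of the pathways themselves were mostly close to 0. Of 37 genes activated by DAF-16, *lea-1* passed below the sum, where 0.0597% of all genes were called. The median interaction of these 37 genes was −0.12, between −0.32 and 0.02 as each library was left out. Their level was 0.380, 0.636 and 0.296 in *age-1; rde-4* and 0.622, 0.632 and 0.383 in *age-1*, against −0.160, −0.303 and −0.693 in *rde-4* and −0.476, −0.523 and −0.796 in WT, so the strains with *age-1* did not overlap those without it. None of 22 IIS genes and none of 64 Argonaute and small RNA pathway genes passed (edgeR), with medians of −0.11 and −0.13. At an unadjusted p under 0.05, 1 IIS gene was below the sum and 0 above, and 5 small RNA pathway genes were below and 2 above. Of all genes, 8.17% were below and 3.80% above at that threshold.

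The targeted transcripts did not depart from additivity. *rde-4* was at 28.1 ± 2.39 CPM in *age-1; rde-4*, 145 ± 6.53 CPM in *age-1*, 30.7 ± 1.77 CPM in *rde-4* and 180 ± 19.2 CPM in WT (SD, n = 3 each), with an interaction of 0.18 (SE 0.15, adjusted p = 0.684, edgeR). *age-1* had an interaction of −0.09 (SE 0.27, adjusted p = 0.941). Interactions were between −0.32 and 0.12 for *daf-2*, *daf-16*, *daf-18*, *skn-1*, *hsf-1*, *rde-1*, *ergo-1*, *nrde-3*, *vab-1*, *vpr-1* and *act-3*, and the lowest adjusted p among them was 0.722. Of the other 22 lists, 0 genes were called, and their medians ran from −0.38 to 0.47. The embryo and male lists are not among these 22, and each had 0 calls. The 8 embryo genes tested had a median of 1.09, between 0.66 and 1.43 as each library was left out. Among embryo genes with a mean of 50 counts or more the median was −0.15. The 4 male genes tested had a median of −0.82, or −0.41 with the 1 gene at 0 in a whole group set to the floor. Male markers stayed at 0.217 to 0.858 CPM in sum in all 12 libraries.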

How the data were processed

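The libraries were strand-specific and depleted of ribosomal RNA. The authors used HISAT2 2.0.5 for mapping against WBcel235 and StringTie for quantification (version not given in the sources used here). The deposited table gives raw counts, not normalized, of 46653 gene identifiers in 12 libraries. Of these, 45305 were matched by locus tag and 876 by transcript to the annotation, and 472 were not matched.

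In R 4.3.3, edgeR 4.0.16 filtered genes by filterByExpr (16741 kept, 15280 protein-coding), scaled libraries by TMM and fitted 1 quasi-likelihood model of the 4 groups to all 12 libraries. The interaction was tested two-sided, with Benjamini-Hochberg adjustment over all genes. Additive expectations are the product of both single-mutant means over the WT mean. List levels use log2 CPM with a prior count of 2. Replicates were independent worm populations, and counting floors cover counting error only.

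Named were clear protein-coding calls with a highest group mean of at least 50 scaled counts (up to 8 with WT apart and 6 in each other class), the genes that the study names, C32D5.8 and C32D5.18, up to 3 called members of each gene list, and called genes within 10 kb of these. The members and lists were chosen with earlier results of these data known. Alternatives were RLE size factors, DESeq2 1.42.0, the likelihood ratio test, other filters, protein-coding genes alone, replicate number as a block, the collagen level as a covariate, a log2 threshold of 1 and each library left out. List medians under these were added after seeing the data. Methods were tested on simulated data in which shifts were given to the double mutant alone, so patterns with WT or *rde-4* apart were not simulated.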

Additional observations from a re-analysis of the deposited data

Results flagged for a closer look

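For 19 genes the effect of the *rde-4* mutation differed between the *age-1* background and the WT background by the interaction test (edgeR, adjusted p under 0.05). With *rde-4* apart, the differences on the log2 scale were 4.71 for C32D5.8, 4.99 for C32D5.18, 9.78 for Y110A2AL.1 and 1.95 for *fbxb-7*. With the double mutant apart they were 1.62 for *dlk-1*, 1.74 for C27D8.3, 1.43 for *timm-17B.2*, 1.22 for F54F7.2, −1.42 for W02D9.4 and −3.58 for *ssp-19*. With WT apart they were −4.51 for *spig-5*, −2.20 for *spig-4*, −6.13 for Y58A7A.3, −5.74 for Y58A7A.4, −3.77 for F57A10.2, −9.11 for *tsp-5*, −2.09 for *lea-1* and 2.19 for *fbxa-193*, and in the crossed gene W06A11.4 the difference was −1.99. The values of Y110A2AL.1 and *tsp-5* depend on the prior count of the fit, since a whole group was at 0 counts. With 3 libraries per genotype, single libraries were not tested for standing apart within their group.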

How the results depend on the processing

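No called gene changed direction under any alternative. Alternative values were counted for the called genes and those with an adjusted p from 0.05 to 0.1. Also counted were the genes that the study names and protein-coding genes that overlap called genes. Of all these values, 109 lost a call and 87 gained one, and the cause was not tested. All 19 genes stayed called with RLE size factors, DESeq2, the likelihood ratio test, the replicate block and a log2 threshold of 1. Calls above and below the sum were 87 and 178 with the likelihood ratio test, 107 and 230 with DESeq2, 5 and 5 without a filter (28373 genes tested), and 1 and 1 with the collagen covariate, which kept C32D5.8 and W02D9.4 and can remove effects of the mutations too. WT, *rde-4*, *age-1*, the double mutant and crossed numbered 127, 35, 45, 23 and 35 with the likelihood ratio test, and 181, 45, 53, 25 and 33 with DESeq2. With the covariate they were 0, 1, 0, 1 and 0. Without a filter 1 gene had the double mutant apart and 0 were crossed, 0 were crossed at a mean of 50 counts or more, and 2 with RLE. The labels do not say that a replicate number marks a shared batch or day, and the correlations are only a hint that it might: 12 of 18 same-numbered pairs correlated above 0.1 (−0.0235 to 0.367), 10 of 12 libraries correlated best with their own number on average, and the replicate block gave 38 calls above and 48 below (WT 38, *rde-4* 15, *age-1* 13, crossed 12). Leaving out 1 library gave 3 to 19 calls above and 2 to 35 below, with 2 to 33 for WT, 3 to 12 for *rde-4*, 0 to 6 for *age-1*, 0 to 6 for the double mutant and 0 to 5 crossed. The collagen covariate turned the median of the collagen list to 0.19, as its construction allows. Low counts in a whole group limit *tsp-5*, Y110A2AL.1, C32D5.18, Y58A7A.3, Y58A7A.4, *spig-5* and F57A10.2. In WT replicates 1 to 3, *spig-5* had 7, 10 and 12 counts and F57A10.2 had 6, 11 and 10.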

Other observations

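A further 20 genes had an interaction at an adjusted p from 0.05 to 0.1 (edgeR) and so did not pass; those named here were chosen after their values were seen. The neighbouring cuticle collagen genes *col-7* and *col-62* on chromosome I were crossed, with a clear split in *col-7* only. *col-7* averaged 9.996, 28.7, 21.4 and 8.97 CPM in *age-1; rde-4*, *age-1*, *rde-4* and WT (interaction −2.78, adjusted p = 0.0613). *col-62* averaged 9.98, 23.8, 17.9 and 7.89 CPM in the same order (interaction −2.44, adjusted p = 0.0575). *tbh-1*, which encodes the enzyme that makes octopamine from tyramine, was crossed the other way without a clear split (largest gap 0.280 log2 units, next gap 0.263). It was at 232, 187, 156 and 227 CPM in the same order (interaction 0.86, adjusted p = 0.0884). *irg-5*, an infection response gene, was highest in *rde-4* alone, at 16.08 CPM in *age-1; rde-4*, 9.31 CPM in *age-1*, 61.1 CPM in *rde-4* and 7.78 CPM in WT (interaction −2.19, adjusted p = 0.0962). *acbp-8*, of the acyl-CoA-binding protein family, was lowest in *age-1*, at 8.77, 4.19, 12.9 and 14.9 CPM in the 4 strains in that order (interaction 1.27, adjusted p = 0.0879).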
